A study of Homo sapiens with 8 samples.

Results

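The genes described here carry a TBC domain, the fold that lets a protein act as a GTPase-activating protein (GAP) for a Rab GTPase. They were taken by name from the expression tables: every gene symbol that starts with TBC1D or TBCK, together with SGSM1, SGSM2, SGSM3, RABGAP1, RABGAP1L, EVI5, EVI5L, USP6NL and GRTP1. After 3 pseudogenes were dropped, this gave 49 genes of 30017 symbols. Of the 49, 39 had a mean of at least 1 TPM, the level of a gene's transcripts per length and per library total, over the 8 libraries and were tested, among 13141 genes tested in all.

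RNA sequencing was performed on A549-S3KO cells, a clone of the A549 human lung adenocarcinoma cell line in which SMAD3 was disrupted with CRISPR/Cas9 nickases. Every library came from such knockout cells infected with lentivirus, carrying either wild-type Smad3 cDNA or the cDNA of Smad3 R104K A105P, a double substitution in the MH1 domain called Smad3(RA/KP). The 4 groups, each with 2 libraries, were wild-type Smad3 cells without stimulation, wild-type Smad3 cells with TGF-β, Smad3(RA/KP) cells without stimulation and Smad3(RA/KP) cells with TGF-β. TGF-β was given at 1 ng/ml for 8 h, from the moment the cells were seeded on collagen. According to the study's methods, the infected cells were cloned by limiting dilution, but the clones sequenced are not named, so the substitutions and a difference between clones cannot be told apart. The sequencing was meant to find transcripts that bear on the inactivation of Rac1 in Smad3(RA/KP) cells, and the comparisons are stimulated against unstimulated cells of each line, the contrast of both responses, and line against line in each state.

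Rab GTPases mark the membranes of the cell, and each cycles between a GTP-bound state, which recruits effectors for vesicle budding, transport and tethering, and a GDP-bound state. GEFs load GTP, and most TBC proteins end the active state by supplying an arginine and a glutamine that speed GTP hydrolysis. Some TBC proteins lack these residues or serve as scaffolds, among them TBC1D7, a subunit of the TSC complex that restrains mTORC1 through the GTPase Rheb. In epithelial cells such as A549, Rab-dependent traffic carries cadherins, integrins and growth factor receptors to and from the surface.

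The cells carried the epithelial keratins KRT7, KRT8 and KRT18 at 2533 to 6862 TPM, while EPCAM was at 1.40 to 3.95 TPM and KRT19 was listed at 0. CDH1 was at 1.59 to 10.3 TPM. Its log2 fold changes with TGF-β were -1.28 in wild-type Smad3 and -0.97 in Smad3(RA/KP) cells (limma adjusted p 0.074 and 0.148). Among markers of other cell types, PTPRC, CD3E, PECAM1, VWF, KDR and DCN were at 0 in all libraries, and CDH5, PDGFRA and PDGFRB were at most 0.310 TPM. The monocyte gene CD14 was at 4.10 to 13.5 TPM, the fibroblast gene LUM at 0.330 to 5.19 TPM, and the neuronal genes RBFOX3 and SYT1 at 1.33 to 5.52 TPM. LUM was higher in Smad3(RA/KP) cells in both states, at log2 differences of 1.06 and 0.94 that did not pass (limma adjusted p 1 and 0.612), and its part in the results was not tested. SMAD3 mRNA was at 158 and 187 TPM in untreated and 137 and 166 TPM in treated wild-type Smad3 cells, and at 144 and 180 TPM and 168 and 169 TPM in Smad3(RA/KP) cells, a sum of the lentiviral and the edited gene's transcripts that TPM cannot divide. Mapped bases were 1.15 to 1.81 Gb per library. Replicate 2 of untreated Smad3(RA/KP) cells stood apart: its difference from replicate 1 ran with transcript GC content (Spearman's rho -0.589 over the tested genes), while in the other 3 groups rho was 0.104 to 0.225. TGF-β-treated against untreated ratios that use this library carry the same trend (rho 0.664 for replicate 2 of Smad3(RA/KP) cells, against -0.012 to 0.089 for the other 3 ratios). Groups are given as TPM values for replicates 1 and 2, and in these bulk samples less RNA per cell and fewer cells with that RNA cannot be told apart.

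TBC domain genes were expressed over a wide range, and together they held 494 to 594 TPM per library. The 5 with the highest mean level were TBC1D9B (63.6 TPM), TBC1D10B (56.0 TPM), SGSM2 (55.2 TPM), TBC1D7 (48.7 TPM) and TBC1D17 (34.4 TPM). The median over the 39 tested genes was 7.49 TPM, against 13.1 TPM over all genes tested. TBC1D17, which acts on Rab7 and related Rabs, had 35.0 and 36.6 TPM in untreated and 24.4 and 34.9 TPM in treated wild-type Smad3 cells, and 42.8 and 32.8 TPM and 34.4 and 34.0 TPM in Smad3(RA/KP) cells. Its treated (stimulated) and untreated levels overlapped in Smad3(RA/KP) cells and not in wild-type Smad3 cells, where the nearest values were 34.93 and 34.98 TPM. The log2 fold changes were -0.28 in wild-type Smad3 and -0.13 in Smad3(RA/KP) cells (limma adjusted p 0.624 and 0.751). The neighbours TBC1D9B, TBC1D10B and SGSM2 overlapped each other across libraries, so their order is not fixed. At the other end, TBC1D10C, TBC1D21, TBC1D26, TBC1D27 and TBC1D28 were listed at 0 in all 8 libraries. The other 5 genes below the minimum were TBC1D8B (mean 0.621 TPM), TBC1D32 (0.395 TPM), TBC1D30 (0.175 TPM), SGSM1 (0.136 TPM) and TBC1D29 (0.0729 TPM, all of it from replicate 2 of untreated Smad3(RA/KP) cells).

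A gene is said to have passed where limma on log2(TPM + 1), with the replicate number as a block, gave a Benjamini-Hochberg adjusted p under 0.05 over all 13141 genes. With TGF-β, 2 of the 39 genes passed in wild-type Smad3 cells, TBC1D7 upward and TBC1D8 downward, each being 1 of 39. Over all tested genes, 4.68% passed in this comparison, 2.94% upward and 1.74% downward. The same 2 genes passed in Smad3(RA/KP) cells, in the same directions, where 4.98% of all tested genes passed (3.49% upward, 1.5% downward). The test of the difference between the responses was not passed by either gene. At an unadjusted p under 0.05 there were 8 of the 39 genes (20.5%) in wild-type Smad3 cells, against 16.5% of all tested genes, and 5 (12.8%) in Smad3(RA/KP) cells, against 21.9%.

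TBC1D7 lies on the minus strand at chr6:13304951-13328583 (GRCh38, as the tables give it). In wild-type Smad3 cells it was at 32.0 and 31.7 TPM unstimulated and 68.5 and 68.0 TPM stimulated. The Smad3(RA/KP) libraries had 40.1 and 29.8 TPM unstimulated and 58.9 and 60.8 TPM stimulated. All 4 treated libraries lay above all 4 untreated ones, and the treated Smad3(RA/KP) libraries lay below the treated wild-type ones. TBC1D7 rose 2.14-fold in wild-type Smad3 cells by the group means of TPM, with a log2 fold change of 1.08 ± 0.18 (SE) on the log2(TPM + 1) scale and a limma adjusted p of 0.0101. With Smad3(RA/KP) it rose 1.71-fold, with a log2 fold change of 0.77 ± 0.18 (SE) and an adjusted p of 0.0438. The difference of the 2 responses was -0.30, with a 95% interval from -0.87 to 0.27 and an adjusted p of 0.883. The call in wild-type Smad3 cells was lost when any of the 4 wild-type libraries was left out (adjusted p 0.0921 to 0.159, log2 fold change 1.02 to 1.14). The call in Smad3(RA/KP) cells held in 5 of 18 other settings, and when 1 library was left out it held only without replicate 1 of untreated Smad3(RA/KP) cells (0.99, adjusted p 0.0132), with an adjusted p of 0.0868 to 0.281 and values from 0.56 to 0.87 without each of the other 7. With the trend over GC content removed it gave 1.10 with an adjusted p of 0.0427.

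The partners of TBC1D7 in the TSC complex did not pass. TSC1, the scaffold of the complex, had a mean of 4.82 TPM and log2 fold changes of -0.27 in wild-type Smad3 cells and -0.17 in Smad3(RA/KP) cells. TSC2, which carries the GAP activity toward Rheb, had a mean of 32.9 TPM and log2 fold changes of -0.14 and 0.31. The adjusted p-values of these 4 responses from limma were 0.32 to 0.793.

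TBC1D8, a TBC protein with GRAM domains whose Rab is not settled, lies on the minus strand at chr2:101007228-101151392. In wild-type Smad3 cells it was at 43.7 and 28.9 TPM unstimulated and 17.9 and 10.8 TPM stimulated. Cells with Smad3(RA/KP) had 47.7 and 28.1 TPM unstimulated and 29.6 and 10.9 TPM stimulated. Replicate 2 was below replicate 1 in all 4 groups, so that treated and untreated levels overlapped in Smad3(RA/KP) cells but not in wild-type Smad3 cells, and within each replicate number the treated library was the lower in both lines. TBC1D8 fell to 0.395 of its untreated mean in wild-type Smad3 cells, with a log2 fold change of -1.29 ± 0.22 (SE) and a limma adjusted p of 0.0122. In Smad3(RA/KP) cells it fell to 0.534 of its untreated mean, at -0.98 ± 0.22 (SE) with an adjusted p of 0.0421. The difference of the responses was 0.31, with a 95% interval from -0.40 to 1.03 and an adjusted p of 0.887. Without the replicate block, which takes up the gap between replicates, the adjusted p became 0.255 in wild-type Smad3 cells and 0.33 in Smad3(RA/KP) cells. The call was also lost in wild-type Smad3 cells without any 1 of their 4 libraries (0.0517 to 0.199). For Smad3(RA/KP) cells it was lost without each wild-type library (0.0572 to 0.1) and without replicate 2 of untreated (-0.92, 0.172) or treated cells (-0.63, 0.288).

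Neither of the 2 tested relatives of TBC1D8 passed in either line. TBC1D9B, a GAP of recycling endosomes, was at 60.0 and 67.0 TPM unstimulated and 57.9 and 72.5 TPM stimulated in wild-type Smad3 cells, and at 54.3 and 55.7 TPM and 73.0 and 68.4 TPM in Smad3(RA/KP) cells. Treated and untreated levels of TBC1D9B did not overlap in Smad3(RA/KP) cells, and its log2 fold changes were 0.03 ± 0.17 (SE) and 0.36 ± 0.17 (SE), with limma adjusted p-values of 0.97 and 0.256. Its sign in wild-type Smad3 cells turned with FPKM values (-0.01). TBC1D9 was at 4.26 and 6.24 TPM and 4.40 and 7.45 TPM in wild-type Smad3 cells, and at 5.71 and 6.32 TPM and 6.62 and 5.83 TPM in Smad3(RA/KP) cells, with overlapping groups in both lines. TBC1D8B was at 0.377 to 0.750 TPM in all libraries, below the minimum for testing. An alignment score was taken as the bases of the shorter transcript less the substitutions, insertions and deletions needed, as a percentage. Over the longest transcripts it was 58.95% for TBC1D8 with TBC1D8B and 58.35% with TBC1D9. The score of unrelated transcripts was not taken.

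**Figure D1:**
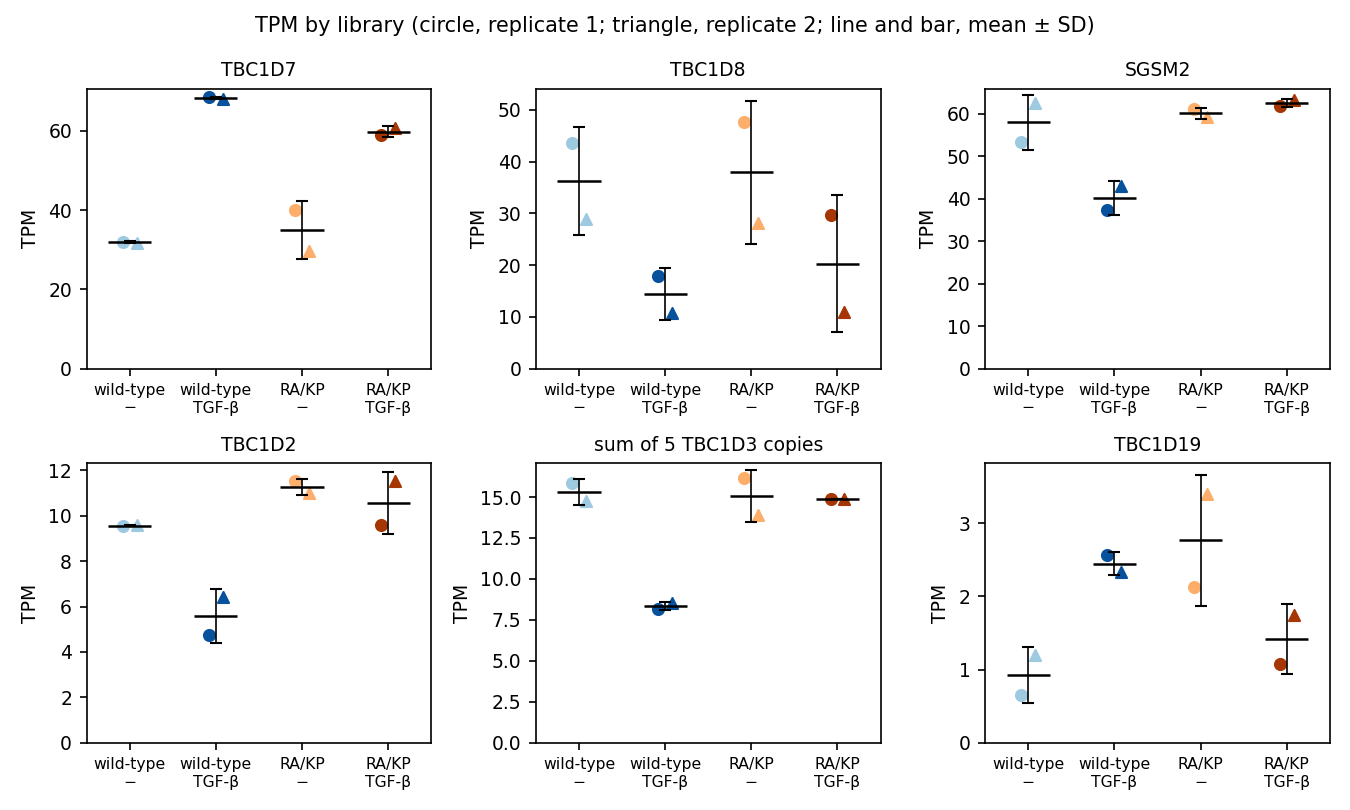
TPM of TBC1D7, TBC1D8, SGSM2, TBC1D2, the sum of 5 TBC1D3 copies and TBC1D19 in the 4 groups (axes start at 0). Circles are replicate 1, triangles replicate 2, and lines with bars the mean ± SD of 2 libraries. In TBC1D7 both treated groups lie above both untreated groups. In SGSM2, TBC1D2 and the TBC1D3 sum treated wild-type Smad3 cells hold the lowest values. The share of all tested genes with this order was not counted.

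The promoters of these 2 genes, and of SGSM2, which had the smallest p-value among TBC domain genes between the treated lines, are shown because Smad3 binds DNA through short motifs. The windows are the 250 bases before the start of transcription, 5′ to 3′ on the gene's strand, from RefSeq on GRCh38.p14. RefSeq starts differ from the gene coordinates given above, and the windows of TBC1D7 and TBC1D8 reach into those coordinates. Capitals mark the Smad motif CAGAC and the GC-rich Smad motifs GGCGC and GGCCG, on either strand; where GGCGC and its complement overlap, both are counted. A promoter window was found for 38 of the 49 genes, 59 windows in all.
TBC1D7, chr6:13328538-13328787, minus strand: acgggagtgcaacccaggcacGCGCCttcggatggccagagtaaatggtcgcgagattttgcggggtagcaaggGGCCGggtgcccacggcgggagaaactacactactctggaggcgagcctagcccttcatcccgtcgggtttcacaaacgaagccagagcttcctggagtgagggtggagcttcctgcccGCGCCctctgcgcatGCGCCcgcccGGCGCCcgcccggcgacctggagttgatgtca
TBC1D8, chr2:101151383-101151632, minus strand: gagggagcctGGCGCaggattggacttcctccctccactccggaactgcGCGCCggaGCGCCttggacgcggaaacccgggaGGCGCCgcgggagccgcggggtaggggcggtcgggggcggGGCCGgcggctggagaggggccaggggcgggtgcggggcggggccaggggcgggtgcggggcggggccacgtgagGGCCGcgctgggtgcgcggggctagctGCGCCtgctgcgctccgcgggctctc
SGSM2, chr17:2337251-2337500, plus strand: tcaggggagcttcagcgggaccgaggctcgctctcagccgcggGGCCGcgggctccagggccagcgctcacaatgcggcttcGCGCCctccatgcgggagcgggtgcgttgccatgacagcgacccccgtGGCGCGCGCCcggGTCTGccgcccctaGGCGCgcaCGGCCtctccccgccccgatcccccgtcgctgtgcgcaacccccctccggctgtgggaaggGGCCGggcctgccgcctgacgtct
CAGAC occurs 0 times in the windows of TBC1D7 and TBC1D8 and 1 time in that of SGSM2, and the GC-rich motifs occur 6, 8 and 7 times. CAGAC is in 26 of the 59 windows of TBC domain genes (44.1%), against 38.0% of 35116 windows of all genes. GGCGC or GGCCG is in 61.0%, against 57.0%, and the palindrome GTCTAGAC is in 0 of 59, against 0.2%. The AP-1 motif, searched as TGAGTCA or TGACTCA, is in 3.4%, against 4.2%. These are matches of letters in a short window and not binding sites.

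SGSM2 and SGSM3 encode small G protein signalling modulators, which bind Rap and Rab GTPases. SGSM2 (chr17:2337512-2381059, plus strand) was at 53.3 and 62.5 TPM unstimulated and 37.4 and 42.9 TPM stimulated in wild-type Smad3 cells. Its levels with Smad3(RA/KP) were 61.0 and 59.2 TPM unstimulated and 61.9 and 63.2 TPM stimulated. Treated wild-type Smad3 cells thus held the 2 lowest values of the 8, and the other 6 libraries lay between 53.3 and 63.2 TPM. SGSM2 was named for its small p-values in these same libraries. The share of all tested genes with this order was not counted. The log2 fold change was -0.52 ± 0.16 (SE) in wild-type Smad3 cells (limma adjusted p 0.123) and 0.06 ± 0.16 (SE) in Smad3(RA/KP) cells, neither past the threshold. With the trend over GC content removed, SGSM2 passed in wild-type Smad3 cells (-0.49, adjusted p 0.0334), and its value in Smad3(RA/KP) cells became -0.20. In that setting 1203 of 11535 genes passed in wild-type Smad3 cells, against 615 of 13141 without the removal. SGSM3, at 18.8 to 31.2 TPM in the 8 libraries, had -0.30 and 0.01, the latter turning negative with FPKM values (-0.03) and with the GC trend removed (-0.26).

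Among the 5 genes that act on Rab7 and the late endosome, none passed in either line, and TBC1D2B had a log2 fold change above 0 and the other 4 below 0 in both lines. TBC1D2, or Armus, an effector of Rac1 that inactivates Rab7 and directs E-cadherin to lysosomes, was at 9.53 and 9.58 TPM unstimulated and 4.73 and 6.43 TPM stimulated in wild-type Smad3 cells. The 4 libraries of the mutant line had 11.5 and 11.02 TPM unstimulated and 9.60 and 11.5 TPM stimulated. As with SGSM2, treated wild-type Smad3 cells held the 2 lowest values, at -0.69 ± 0.22 (SE) with an adjusted p of 0.123, or 0.0288 with the GC trend removed. In Smad3(RA/KP) cells TBC1D2 had -0.09 ± 0.22 (SE), with a limma adjusted p of 0.834. The difference of its responses, 0.60, ranged from 0.34 to 0.76 over the alternatives. With the GC trend removed, the median of the 5 genes was -0.26 in wild-type Smad3 and -0.33 in Smad3(RA/KP) cells. TBC1D15, a Rab7 GAP that also works at mitochondria, was at 8.34 and 7.88 TPM and 7.93 and 4.96 TPM in wild-type Smad3 cells, and at 5.14 and 14.6 TPM and 4.20 and 2.88 TPM in Smad3(RA/KP) cells. Its high value, in replicate 2 of untreated Smad3(RA/KP) cells, is in the library that stood apart, and its transcript has a GC content of 36.4%. The log2 fold change of TBC1D15 in Smad3(RA/KP) cells was -1.12 ± 0.42 (SE) with an adjusted p of 0.168. It was -1.98 (adjusted p 0.00997) without replicate 1 of untreated cells and -0.27 without replicate 2. TBC1D2B, at 9.06 to 14.6 TPM, had 0.40 and 0.41 in the 2 lines, with both treated libraries above both untreated ones in each.

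The 5 TBC1D3 copies, a hominoid gene family on chromosome 17, were given separate values, but their longest transcripts are 98.91 to 99.86% identical, so the split of reads among them is uncertain and their sum was taken after the values were seen. The sum was 15.9 and 14.8 TPM unstimulated and 8.16 and 8.53 TPM stimulated in wild-type Smad3 cells, and 16.2 and 13.9 TPM and 14.9 and 14.9 TPM in Smad3(RA/KP) cells. The treated wild-type libraries held the 2 lowest values and the other 6 lay between 13.9 and 16.2 TPM, an order whose share over all tested genes was not counted. The log2 fold change of the sum was -0.80 ± 0.19 (SE) in wild-type Smad3 cells, with a limma adjusted p of 0.0524, and -0.01 ± 0.19 (SE) in Smad3(RA/KP) cells. The difference of the responses was 0.79 with an adjusted p of 0.882. Singly, all 5 copies had negative log2 fold changes in wild-type Smad3 cells (-0.82 to -0.49), also under the other scalings, and none passed. TBC1D3C, the copy with the lowest p-value, was at 3.86 and 4.06 TPM and 1.64 and 1.98 TPM in wild-type Smad3 cells, and at 4.52 and 4.59 TPM and 3.61 and 5.03 TPM in Smad3(RA/KP) cells. It had an adjusted p of 0.107, or 0.034 with the GC trend removed. TBC1D3 itself was at 4.01 and 2.90 TPM and 2.09 and 2.12 TPM in wild-type Smad3 cells, and at 2.80 and 3.89 TPM and 3.67 and 3.33 TPM in Smad3(RA/KP) cells.

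The genes linked to Rab35 and Rab27, which serve endosomal recycling and secretion, are TBC1D10A, TBC1D10B, TBC1D10C, TBC1D13 and TBC1D24. All 4 that were tested had log2 fold changes above 0 in both lines, with medians of 0.13 and 0.33, but none passed. They kept this sign under each other scaling. With the GC trend removed the medians were 0.15 in wild-type Smad3 and 0.17 in Smad3(RA/KP) cells. TBC1D24 fell in replicate 1 and rose in replicate 2 of both lines (-0.25 and 0.55, and -0.15 and 0.66). TBC1D10B was at 44.7 and 45.8 TPM unstimulated and 50.4 and 70.8 TPM stimulated in wild-type Smad3 cells, and at 50.4 and 49.2 TPM and 64.7 and 71.9 TPM in Smad3(RA/KP) cells. Treated and untreated levels of TBC1D10B did not overlap in either line, at 0.39 ± 0.18 (SE) and 0.45 ± 0.18 (SE) with adjusted p-values of 0.322 and 0.195. TBC1D16, a GAP for Rab4 in receptor recycling, was at 9.21 and 11.9 TPM and 13.1 and 16.2 TPM in wild-type Smad3 cells, and at 9.40 and 11.2 TPM and 16.7 and 16.6 TPM in Smad3(RA/KP) cells. Both treated libraries of TBC1D16 lay above both untreated ones in each line, at 0.44 ± 0.20 (SE) and 0.65 ± 0.20 (SE) with adjusted p-values of 0.313 and 0.105. With median-ratio scaling TBC1D16 passed in Smad3(RA/KP) cells (0.74, limma adjusted p 0.0492), while TBC1D7 did not (adjusted p 0.0518). TBC1D16 passed there in 1 of 18 alternatives, and its value was 0.45 with the GC trend removed.

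Of the 7 genes of the endoplasmic reticulum, Golgi and autophagy, none passed. TBC1D20, a GAP for Rab1 and Rab18, stayed within 26.9 to 33.3 TPM in all 8 libraries. TBC1D14, which regulates autophagy through recycling endosomes, was at 23.1 and 24.8 TPM and 12.7 and 19.7 TPM in wild-type Smad3 cells, and at 25.5 and 22.3 TPM and 18.7 and 16.7 TPM in Smad3(RA/KP) cells. Treated levels of TBC1D14 lay below untreated ones in both lines, at -0.57 and -0.41 with adjusted p-values of 0.248 and 0.321. TBC1D23, an adaptor that captures endosome-derived vesicles at the Golgi, was at 6.57 and 4.64 TPM and 7.34 and 6.51 TPM in wild-type Smad3 cells, and at 4.72 and 8.41 TPM and 4.61 and 3.72 TPM in Smad3(RA/KP) cells. TBC1D12, a relative of TBC1D14, was at 0.928 and 1.08 TPM and 1.00 and 1.66 TPM in wild-type Smad3 cells, and at 1.03 and 2.33 TPM and 0.927 and 1.29 TPM in Smad3(RA/KP) cells. TBC1D23 and TBC1D12 were both highest in replicate 2 of untreated Smad3(RA/KP) cells.

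TBC1D4, the insulin-responsive GAP also known as AS160, was at 3.11 and 4.29 TPM unstimulated and 1.75 and 2.07 TPM stimulated in wild-type Smad3 cells, and at 3.91 and 3.26 TPM and 2.74 and 2.57 TPM in Smad3(RA/KP) cells. Treated levels lay below untreated ones in both lines, at -0.68 and -0.32 with adjusted p-values of 0.223 and 0.496. TBC1D31, a centrosomal protein, was at 2.82 and 3.13 TPM and 2.15 and 1.62 TPM in wild-type Smad3 cells, and at 2.90 and 5.43 TPM and 2.04 and 2.25 TPM in Smad3(RA/KP) cells. Its treated levels also lay below the untreated ones in both lines, at -0.47 and -0.67 with adjusted p-values of 0.526 and 0.229. TBC1D19, a little-studied TBC gene (chr4:26576682-26756610, plus strand), was at 0.651 and 1.197 TPM unstimulated and 2.56 and 2.34 TPM stimulated in wild-type Smad3 cells. With the mutant Smad3 it had 2.13 and 3.40 TPM unstimulated and 1.08 and 1.75 TPM stimulated. The groups did not overlap in either line and stood in opposite order, at 0.86 ± 0.28 (SE) and -0.63 ± 0.28 (SE) with adjusted p-values of 0.145 and 0.234, all at levels near the minimum for testing.

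Counting groups that did not overlap, with no test, 5 of the 39 genes (12.8%) were higher and 16 (41%) lower in both treated wild-type libraries than in both untreated ones. The shares over all tested genes were 17.8% and 27.9%. Among the 16 are all 5 TBC1D3 copies, near-identical genes that are not independent of each other. For Smad3(RA/KP) cells the counts were 10 higher (25.6%) and 10 lower (25.6%), against 19% and 25.4%. The median log2 fold change of the 39 genes was 0.01 in wild-type Smad3 cells and -0.07 in Smad3(RA/KP) cells, against -0.06 and -0.10 over all tested genes.

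**Figure D2:**
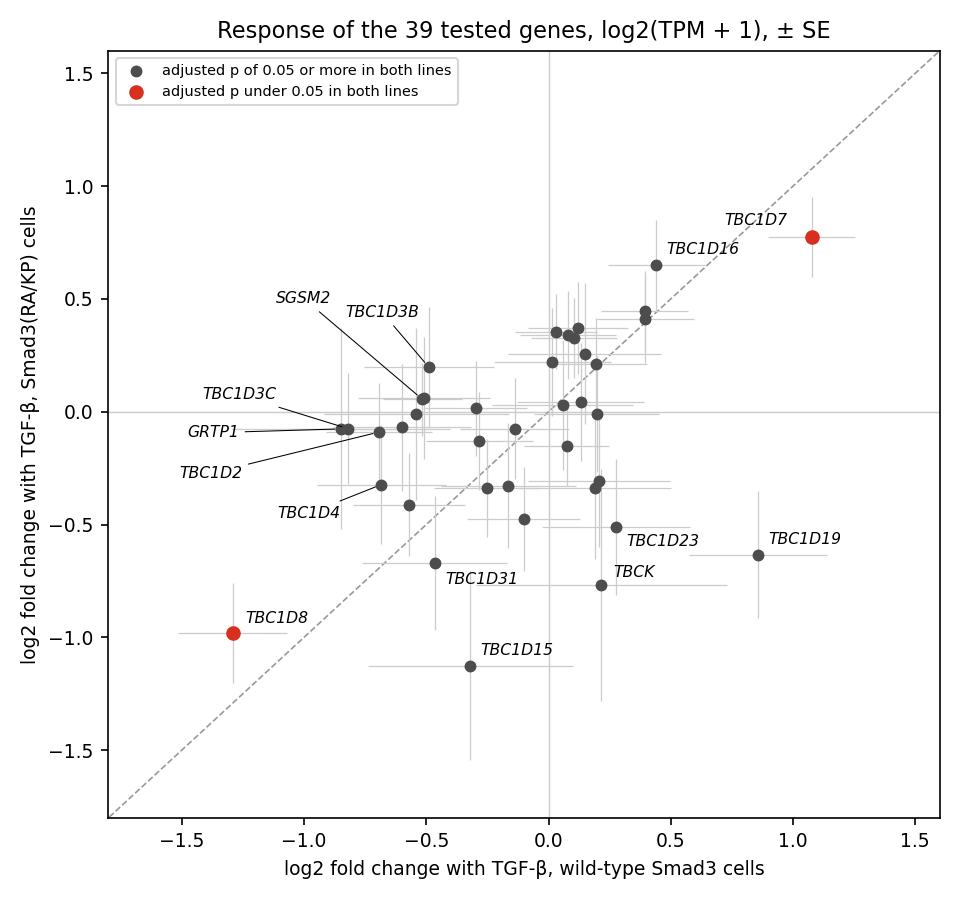
Log2 fold change with TGF-β on the log2(TPM + 1) scale for the 39 tested TBC domain genes, wild-type Smad3 cells on the x axis and Smad3(RA/KP) cells on the y axis, with bars of ± SE. Red points, TBC1D7 and TBC1D8, passed in both lines; the dashed line marks equal responses, and SGSM2, TBC1D2 and TBC1D3C lie near 0 on the y axis with values from -0.82 to -0.52 on the x axis.

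For the difference of the responses, 0 of the 39 genes passed with limma, and 2 had an unadjusted p under 0.05, against 0.0228% of all tested genes that passed (3 genes, 1 higher and 2 lower, or 2 and 2 with median-ratio scaling) and 4.29% with an unadjusted p under 0.05. TBC1D19 had the largest difference in size, -1.49 ± 0.40 (SE), with an unadjusted limma p of 0.00482 and an adjusted p of 0.881. With the GC trend removed its difference was -1.15, and it has a GC content of 38.1%. SGSM2 had the second smallest p-value, at 0.57 ± 0.23 (SE), with an unadjusted limma p of 0.0339 and an adjusted p of 0.881, and with the GC trend removed it was 0.29. TBC1D3C had 0.75, TBC1D2 0.60 and TBC1D23 -0.79, each with an adjusted p of 0.881. The median difference over the 39 genes was 0.11, against -0.02 over all genes, and with the GC trend removed 0.04 against -0.01.

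Between the untreated lines 0 of the 39 genes passed, against 0.0152% of all tested genes (2 genes), and 1 had an unadjusted p under 0.05, against 2.5%. That gene was TBC1D19, higher in both Smad3(RA/KP) libraries, at 0.96 ± 0.28 (SE) with an adjusted p of 1. Among the next smallest p-values were TBC1D12 (0.38), TBC1D9B (-0.20), TBC1D31 (0.33) and TBC1D2 (0.22), each with an adjusted p of 1. TBC1D9B was the 1 gene of the 39 below in both Smad3(RA/KP) libraries, against 8.78% of all tested genes, and 5 (12.8%) were above, against 10.1%. The value of TBC1D31 rested on replicate 2 of untreated Smad3(RA/KP) cells and was -0.04 without it.

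Between the treated lines 0 of the 39 genes passed, against 0.00761% (1 gene), and 3 had an unadjusted p under 0.05, against 7.4%. SGSM2 was 0.63 ± 0.16 (SE) higher in treated Smad3(RA/KP) cells, TBC1D2 0.82 ± 0.22 (SE) and TBC1D3C 0.91 ± 0.25 (SE) on the log2 scale, with limma adjusted p-values of 0.608, 0.612 and 0.612. Next were TBC1D23 at -0.62 and TBC1D3 at 0.54. Of the 39 genes, 13 (33.3%) were higher in both treated Smad3(RA/KP) libraries and 9 (23.1%) lower, against 18.8% and 18.7% of all tested genes. All 5 TBC1D3 copies are among the 13 and are not independent of each other. The median over the 39 genes was 0.15 against 0.00 over all genes, and 0.02 against -0.01 with the GC trend removed. This comparison shares its libraries with the responses above.

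The 39 genes have a median transcript GC content of 53.7%, against 48.8% over tested genes with a known value, so the trend of the library that stood apart reaches them unevenly. Of the 12 with a GC content under 45%, 9 (75.0%) had their highest of 8 values in replicate 2 of untreated Smad3(RA/KP) cells, as did 66.4% of all tested genes in that range. Of the 17 at 55% or more, 0 did, against 3.89%. The median log2 difference of treated and untreated replicate 2 of Smad3(RA/KP) cells was -0.70 in the first group and 0.31 in the second, against -0.69 and 0.32 over all genes. Over the 39 genes, which share these libraries, Spearman's rho of GC content with this ratio was 0.641, against -0.311 to 0.029 in the other 3 ratios. TBC1D7 has a GC content of 40.8% and TBC1D8 one of 52.4%. The replicate 2 ratio of Smad3(RA/KP) cells had a negative median in the range of each. Between 45 and 55% it was -0.18 in the TBC domain genes and -0.22 over all genes. With the GC trend removed, the log2 fold change of TBC1D8 in Smad3(RA/KP) cells was -1.01.

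The rest of the Rab cycle was read from lists of Rab GTPases, Rab GEFs and other Rab regulators. Of 44 tested Rab GTPases, 0 rose and 4 fell in wild-type Smad3 cells, where 2.94% of all tested genes rose and 1.74% fell. They were RAB15 of recycling endosomes (-1.16), RAB26 (-1.41) and RAB27B (-1.36), both of secretory granules, and RAB40B (-0.81), which serves a ubiquitin ligase, with limma adjusted p-values of 0.0133, 0.0164, 0.0438 and 0.0454. With Smad3(RA/KP), 0 rose and RAB27B fell, against 3.49% and 1.5% of all tested genes (-1.78, limma adjusted p 0.0142). RAB15 (-0.62), RAB26 (-0.89) and RAB40B (-0.34) were also below 0 in Smad3(RA/KP) cells but did not pass. RAB27B was at 7.002 and 7.39 TPM unstimulated and 1.73 and 2.72 TPM stimulated in wild-type Smad3 cells, and at 8.73 and 11.8 TPM and 3.16 and 1.56 TPM in Smad3(RA/KP) cells, with no overlap in either line. Of 35 tested Rab GEFs, ST5, a DENN domain protein, rose in both lines (1.19 and 1.04, adjusted p 0.0119 and 0.0223). DENND3, a GEF for Rab12, fell in wild-type Smad3 cells (-0.90, limma adjusted p 0.0474) and had -0.51 in Smad3(RA/KP) cells without passing. The values of these listed genes were not followed through the alternative settings. None of the 9 other Rab regulators passed in either line. The median log2 fold changes of Rab GTPases were -0.08 and -0.18 in the 2 lines, those of the Rab GEFs -0.07 and -0.23, beside 0.01 and -0.07 for the TBC domain genes, and 0 genes of any list passed for the difference of the responses.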

How the data were processed

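RNA of 8 libraries (4 groups of 2, numbered as in the sample labels) was sequenced by the authors after poly(A) selection with an Ion Total RNA-Seq kit. Reads were aligned to GRCh38 with HISAT2 2.1.0 and quantified with StringTie 2.0.4, per the submitters' processing notes. The annotation release, and whether strand was used in counting, are not given in the sources used here, so a gene and an antisense partner cannot be told apart. The deposited tables hold base coverage, FPKM and TPM of 33122 records. TPM was scaled by the authors to 1000000 per library, and FPKM per length and mapped reads. Coverage, as deposited, was divided by FPKM to recover the mapped bases. Read numbers per gene are not in these files, and counting error was therefore not estimated.

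TPM of records with the same symbol was summed. Genes averaging 1 TPM or more were tested on log2(TPM + 1) with limma 3.58.1 (R 4.3.3), two-sided, with 4 groups, the replicate number as a block, moderation along a mean-variance trend, and adjustment by Benjamini-Hochberg over 13141 genes at 0.05. Fold changes on this scale understate the change of low genes. The script was tested on simulated data. All 4 groups share 1 estimate of the spread (3 residual and 5.9 prior degrees of freedom). The study describes 2 independent experiments. That a number marks the same experiment in both lines is an assumption, and deviations of same-numbered libraries correlated at 0.0484 to 0.332. Alternatives were no block, a block within each line, other pseudocounts (0.1 and 5 TPM), filters, FPKM, median-ratio scaling, removal of each library's GC trend, no mean-variance trend, and leaving out each library. GC content was known for 87.8% of tested genes. Promoter windows came from RefSeq and motifs were searched on both strands. Python 3.11.15 and matplotlib 3.10.9 were used.

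The genes, lists and tests were chosen with earlier results of these data known. Values are given by library for genes past the threshold, up to 5 genes with the smallest p in each comparison, close relatives of genes past the threshold, and the 5 most abundant genes, and other members by level or count. TBC1D4, TBC1D14 and RAB27B were added to these after their values were seen.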

Additional observations from a re-analysis of the deposited data

Results flagged for a closer look

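In 6 genes both replicates of the 2 lines moved in opposite directions with TGF-β, on the log2(TPM + 1) scale. Many of these moves were small. In replicate 1 of Smad3(RA/KP) cells they were 0.019 for SGSM2, 0.075 for TBC1D3B, -0.078 for TBC1D12, -0.012 for TBC1D20 and -0.028 for TBC1D23. For TBC1D19 the move was -0.589. TBC1D20 moved by 0.016 in replicate 2 of wild-type Smad3 cells. The difference of the responses (Smad3(RA/KP) minus wild-type Smad3) was 0.57 for SGSM2 and 0.69 for TBC1D3B, lower in stimulated than in unstimulated wild-type Smad3 cells and the reverse in Smad3(RA/KP) cells. It was -0.51 for TBC1D12, -1.49 for TBC1D19, -0.23 for TBC1D20 and -0.79 for TBC1D23, which were in the opposite order. None passed the limma test of the difference, with an adjusted p of 0.887 for TBC1D20 and 0.881 for the other 5. The order of the first kind was found in 2 of 39 tested TBC domain genes (5.1%), against 4.92% of all tested genes, and that of the second kind in 4 (10.3%), against 3.45%. With the GC trend of each library removed, the differences were 0.29 for SGSM2, 0.53 for TBC1D3B and -0.30 for TBC1D12. They were -1.15 for TBC1D19, -0.15 for TBC1D20 and -0.47 for TBC1D23. SGSM2 was then below 0 in both lines, at -0.49 in wild-type Smad3 and -0.20 in Smad3(RA/KP) cells. TBC1D12, TBC1D19 and TBC1D23 have a GC content under 45% and their highest values in replicate 2 of untreated Smad3(RA/KP) cells. TBC1D20, with a GC content of 47.4%, also had its highest value in that library (33.3 TPM). The part of that library's trend in these values was not tested beyond this removal.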

How the results depend on the processing

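Of the 39 TBC domain genes, 2 passed in wild-type Smad3 cells, 1 without the replicate block, 1 without the filter on low values, 5 with the GC trend removed (TBC1D7, TBC1D8, SGSM2, TBC1D2 and TBC1D3C) and 0 to 2 when each library was left out. In Smad3(RA/KP) cells 2 passed, 0 without the replicate block, with a block within each line, without the filter or without the mean-variance trend, 1 with FPKM, and 0 to 4 when each library was left out, 4 being reached without replicate 1 of untreated cells, with TBC1D15 and TBC1D23 (-1.01, adjusted p 0.0333) beside TBC1D7 and TBC1D8. Without replicate 1, the library that stood apart was the only untreated Smad3(RA/KP) library. TBC1D15 and TBC1D23 have a GC content of 36.4% and 39.2%. Their treated against untreated log2 ratios in Smad3(RA/KP) cells were -0.24 and -0.03 in replicate 1, and -2.01 and -0.99 in replicate 2. The part of that library's GC trend in these calls was not tested. In the other 3 comparisons 0 passed under any alternative run. TBC1D7 passed in 14 of 18 alternatives in wild-type Smad3 cells and 5 of 18 in Smad3(RA/KP) cells, TBC1D8 in 12 and 8. Of the values followed through every alternative, those of the 5 genes with the smallest p in each comparison, that of TBC1D31 between the untreated lines changed sign, to -0.035 without replicate 2 and 0.704 without replicate 1 of untreated Smad3(RA/KP) cells, and the other 24 did not. Other genes near 0 changed sign with scaling, as given above for TBC1D9B, SGSM2 and SGSM3.

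Of all tested genes, 615 passed in wild-type Smad3 cells, against 277 without the replicate block, 372 with a block within each line, 287 without the filter, 1203 with the GC trend removed and 106 to 1011 when each library was left out. In Smad3(RA/KP) cells 655 passed, against 269, 376 and 242 in the first 3 of these settings and 163 to 2622 with a library left out. For the difference of the responses 3 passed, against 0 with a block within each line, a pseudocount of 5 TPM, no filter or the GC trend removed, 1 with a pseudocount of 0.1 TPM or a minimum of 5 TPM, and 0 to 8 with a library left out. Between untreated lines 2 passed, against 1 without the replicate block, with a pseudocount of 5 TPM or without the mean-variance trend, 0 with the GC trend removed, and 1 to 7 with a library left out. Between treated lines 1 passed, against 3 and 2 with pseudocounts of 0.1 and 5 TPM, 0 without the filter, the GC trend or the mean-variance trend, and 0 to 6 with a library left out. The cause of these changes was not tested. SGSM2, TBC1D2 and TBC1D3C were thus added in wild-type Smad3 cells by a setting that passed more of all genes. With the GC trend removed it was 1203 of 11535 genes, against 615 of 13141 without the removal. No record in the tables joins 1 of the 49 genes to another gene (TBC1D3P1-DHX40P1 joins a dropped pseudogene), so adding readthrough records was not run. With 2 libraries per group, leaving 1 out assumes that the remaining library varies like those of the other groups.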
